A study of Mus musculus with 8 samples.

Results

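Exit from pachynema into the first meiotic division is driven by a small set of cell-cycle kinases, cyclins and their regulators. Cdk1 with its B-type cyclins forms the M-phase promoting factor, which is held inactive by the kinase Wee1 and released by the phosphatase Cdc25c. The Polo-like kinase Plk1 and the Aurora kinases act on the synaptonemal complex, the spindle and the centromeres, and Cdc20 activates the anaphase-promoting complex, the ubiquitin ligase that ends M phase. In the testis, primary spermatocytes hold transcripts of several of these genes through a long prophase, and the same genes are used by dividing spermatogonia and somatic cells. The 10 genes described here were chosen by name: Cdk1, Ccnb1, Ccnb2, Wee1, Cdc25c, Plk1, Aurka, Aurkb, Aurkc and Cdc20. All 10 were found among the 54532 genes of the expression table, and all 10 were among the 12141 protein-coding genes that passed the filter, a mean above 1 FPKM in each group. FPKM counts the fragments of a gene, divided by its length in kilobases and by a scaled library size.

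Whole testes were sequenced from 8 mice, 4 of them Sync-Spdya fl/fl and the other 4 Sync-Spdya cKO, each giving 1 library. Both groups were juvenile mice on a C57BL/6J background whose spermatogenesis had been synchronized with an inhibitor of retinoic acid synthesis followed by retinoic acid (RA). Both carried floxed Spdya alleles (genotype Spdya fl/fl), received tamoxifen at RA7.5 and RA8.5 according to the labels, and were collected at RA11.5, when the study describes the testes as mid-late pachytene. The cKO mice also carried Ddx4-CreERT2, a tamoxifen-inducible Cre recombinase expressed in germ cells, which removes exon 2 of Spdya there. The fl/fl mice therefore shared the floxed alleles and the drug but had no Cre. Spdya encodes Speedy A, an activator of cyclin-dependent kinases that sits at meiotic telomeres, and the comparison asks how transcript levels stood after its removal from pachytene spermatocytes.

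The recovered fragments per library ranged from 13978342 to 17867570 in the fl/fl group and from 15494873 to 19583091 in the cKO group. The level of Spdya gave no check of the labels, with a log2 fold change of 0.15 and a Benjamini-Hochberg adjusted p of 0.787 (limma). Markers of pachytene spermatocytes were present, with Sycp3 at 90.6 to 174.2 FPKM and Hspa2 at 253.3 to 450.8 FPKM. Hist1h1t, a histone gene of mid to late pachytene cells, was at 0.210 to 0.893 FPKM. Its protein, H1t, was reported by the study in most pachytene spermatocytes of both groups at an earlier collection. The RNA level therefore gives no stage here. Of the round spermatid markers, Prm1, Prm2, Tnp1 and Tnp2 were at or near 0, at most 0.580 FPKM in any library. Acrv1 and Catsper3 were at most 0.389 FPKM. Tssk1 was at 0.694 to 1.14 FPKM and Spaca1 at 1.92 to 8.99 FPKM, highest in fl/fl replicate 1. Fragments from mitochondrial genes made up 0.464% of fl/fl replicate 1 and 2.20% to 3.74% of the other libraries. Whole testis holds all its cell types, so fewer cells of a type and less RNA per cell cannot be told apart.

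Promoter sequences are shown for the members of the 3 gene pairs with the closest covariation over the libraries, where RefSeq gave one that can be printed, and for Aurkc, the member with the lowest median correlation, to place their promoter elements beside the values given further on. Promoters of genes of G2 and M phase often hold a cell-cycle homology region (TTTGAA or TTCGAA) and CCAAT boxes. RefSeq (GRCm38.p6) gave a window of 250 bases before to 50 bases from the gene start for 7 of the 10 members. The stretches below run from 150 bases before to 30 bases from that start, 5′ to 3′ on the gene's strand, with each CCAAT and TTTGAA in capitals. A box on the opposite strand reads ATTGG. The RefSeq start can differ from the gene boundary given further on. In Ccnb1, Cdk1, Cdc20 and Aurkc it lies inside the gene as listed there, and so do some bases before it. Plk1 (chr7:122159285-122159464, plus strand) and Ccnb1 (chr13:100786457-100786636, minus strand) moved together over the libraries, as did Aurka (chr2:172370541-172370720, minus strand) and Cdc20 (chr4:118437314-118437493, minus strand). The stretch of Cdk1, whose partner was Cdc25c, is chr10:69352883-69353062, minus strand, and that of Aurkc is chr7:6995235-6995414, plus strand.
Plk1: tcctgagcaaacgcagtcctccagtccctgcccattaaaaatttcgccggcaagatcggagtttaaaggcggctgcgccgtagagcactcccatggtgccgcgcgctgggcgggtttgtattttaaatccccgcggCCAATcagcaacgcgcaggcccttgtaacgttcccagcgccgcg
Ccnb1: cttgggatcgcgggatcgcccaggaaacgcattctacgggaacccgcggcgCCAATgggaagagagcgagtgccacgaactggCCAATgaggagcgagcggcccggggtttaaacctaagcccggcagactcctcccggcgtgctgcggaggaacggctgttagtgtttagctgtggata
Aurka: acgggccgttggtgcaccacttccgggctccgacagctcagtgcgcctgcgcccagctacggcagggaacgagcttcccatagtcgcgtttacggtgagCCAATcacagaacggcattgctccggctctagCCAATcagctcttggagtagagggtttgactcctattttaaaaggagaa
Cdc20: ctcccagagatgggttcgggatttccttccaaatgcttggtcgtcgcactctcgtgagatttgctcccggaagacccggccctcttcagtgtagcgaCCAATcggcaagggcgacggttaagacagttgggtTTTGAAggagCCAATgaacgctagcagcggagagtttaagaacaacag
Cdk1: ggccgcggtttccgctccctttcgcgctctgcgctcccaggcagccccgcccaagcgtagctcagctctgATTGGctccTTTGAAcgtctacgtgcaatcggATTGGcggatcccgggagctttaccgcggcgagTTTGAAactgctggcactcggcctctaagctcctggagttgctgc
Aurkc: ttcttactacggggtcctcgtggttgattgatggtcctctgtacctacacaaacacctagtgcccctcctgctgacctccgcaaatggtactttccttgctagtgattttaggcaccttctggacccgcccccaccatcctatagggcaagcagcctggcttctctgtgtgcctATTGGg

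In the windows of 300 bases, CCAAT on either strand was found in 7 of 7 members and in 37.4% of 32851 RefSeq promoter windows. At least 2 CCAAT boxes were present in 5 of the 7 members (Aurka, Cdc20, Ccnb2, Cdk1 and Ccnb1) and in 11.7% of all windows. TTTGAA on either strand was found in Plk1, Aurka, Cdc20, Cdk1 and Ccnb2, or 5 of 7, and in 17.9% of all windows. Both elements together were in the same 5 members and in 6.95% of all windows. TTCGAA was in 0 of 7 members and 1.56% of windows. AACNG, the core that MYB factors such as the pachytene regulator Mybl1 bind, was in 6 of 7 members but also in 80.3% of all windows. AACNG overlapped another of these motifs once, in Cdk1, and nowhere else among the members. The first base of TTTGAA lay 18 bases before the start in Cdc20 and 15 and 71 bases before it in Cdk1, but at base 31 from the start in Plk1 and at base 33 in Aurka, beyond the printed stretches. In Aurkc the only CCAAT was on the opposite strand, at base 25 from the start. Ccnb1, which covaried with Plk1, held 2 CCAAT boxes, 99 and 67 bases before the start, and no TTTGAA. Plk1 held 1 CCAAT box, 14 bases before the start. These are matches of letters and do not show that a factor bound there.

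None of the 10 members was called changed between the groups at the study's thresholds, an adjusted p below 0.05 with an absolute log2 fold change above 1 (limma on log2(FPKM + 0.1), all 12141 genes). Among all genes tested, 2 passed those thresholds (0.0165%). The study applied its thresholds with another test, DESeq2, and reported more differentially expressed genes, so this count is not the study's. At an unadjusted p below 0.05, 1 of the 10 members was higher in the cKO group (Ccnb1) and 0 were lower, beside 5.89% and 5% of all genes tested. With array weights, which weigh libraries by their fit, Ccnb1 no longer had a p below 0.05 (0.0554) and Ccnb2 had one, with a log2 fold change of -0.27 (p of 0.0428, limma), so that the count became 0 higher and 1 lower, beside 20.9% of all genes in either direction. In all 10 members the values of the groups overlapped, whereas the groups did not overlap in 6.24% of all genes tested, with the cKO group higher in 3.64% and lower in 2.59%. The log2 fold change was above 0 in 6 of the 10 members, beside 52% of all genes, with a median of 0.05 over the members and 0.01 over all genes. All fold changes are on the log2(FPKM + 0.1) scale.

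**Figure D1:**
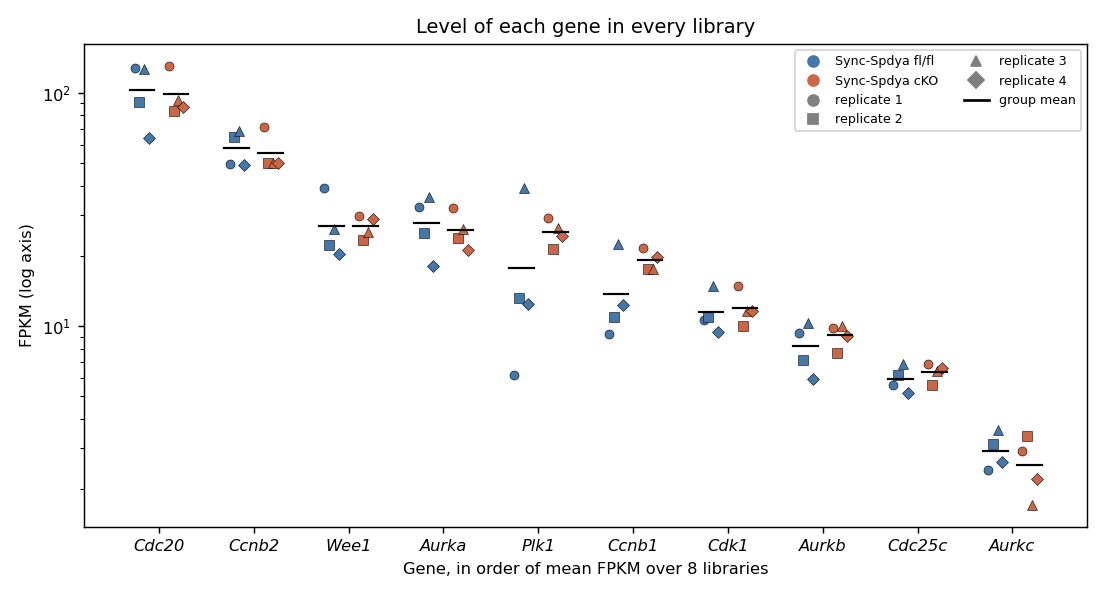
FPKM of the 10 genes on a log axis, in order of their mean over 8 libraries; each point is 1 library (colour for the group, shape for the replicate number) and each bar is a group mean. The groups overlap in every gene, and the Plk1 values of the 4 fl/fl libraries spread from 6.18 to 39.2 FPKM while those of the 4 cKO libraries lie between 21.4 and 28.9 FPKM.

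The levels per length covered a wide range, from Cdc20 at a mean of 100.4 FPKM over the 8 libraries to Aurkc at 2.74 FPKM. Cdc20 stood above Ccnb2 (56.7 FPKM) in 8 of 8 libraries, and Ccnb2 above Wee1 (26.8 FPKM) in 8 of 8 libraries with no overlap of their ranges. Wee1, Aurka (26.8 FPKM) and Plk1 (21.5 FPKM) had no stable order: Wee1 was above Aurka in 3 of 8 libraries and Aurka above Plk1 in 5 of 8. Plk1 was above Ccnb1 (16.4 FPKM) and Ccnb1 above Cdk1 (11.7 FPKM) in 7 of 8 libraries each. Cdk1, Aurkb (8.66 FPKM), Cdc25c (6.17 FPKM) and Aurkc then followed in this order in 8 of 8 libraries, although among neighbours in this order only the ranges of Cdc25c and Aurkc were separate.

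Cdk1, the catalytic subunit of the M-phase promoting factor (chr10:69335146-69352938 on GRCm38, minus strand), was measured at 10.6, 10.9, 14.8 and 9.42 FPKM in fl/fl replicates 1 to 4. In cKO replicates 1 to 4 it was at 14.8, 9.96, 11.6 and 11.6 FPKM. The highest library of each group reached the same level, and the lowest library of all was fl/fl replicate 4. The means were 11.4 ± 2.33 FPKM (SD, n = 4) in the fl/fl group and 12.0 ± 2.04 FPKM (SD, n = 4) in the cKO group. Between the groups the log2 fold change, cKO minus fl/fl, was 0.07 ± 0.16 (SE), with a 95% interval from -0.29 to 0.43 and an adjusted p of 0.907 (limma). The interval corresponds to a ratio of 0.820 to 1.35.

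Ccnb1 encodes cyclin B1, which brings Cdk1 to the nucleus at the onset of M phase (chr13:100778650-100786570, minus strand). Its fl/fl levels were 9.26, 11.0, 22.4 and 12.3 FPKM, and its cKO levels were 21.6, 17.6, 17.6 and 19.7 FPKM. Every cKO library lay above fl/fl replicates 1, 2 and 4 and below fl/fl replicate 3. The means were 13.7 ± 5.92 and 19.1 ± 1.92 FPKM (SD, n = 4 each). For Ccnb1 the log2 fold change was 0.55 ± 0.23 (SE) with a 95% interval from 0.03 to 1.08. It had the smallest p of the members, 0.0400 before adjustment and 0.444 after adjustment over all genes tested (limma), so the difference did not pass the threshold.

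Ccnb2 encodes cyclin B2, the B-type cyclin of the cytoplasm and Golgi (chr9:70407692-70421547, minus strand). It was measured at 49.6, 64.4, 68.4 and 49.3 FPKM in the fl/fl libraries and at 71.4, 49.9, 50.2 and 50.2 FPKM in the cKO libraries. The cKO values were close to one another except in replicate 1. For this cyclin the log2 fold change was -0.07 ± 0.16 (SE), with an interval from -0.43 to 0.30 and an adjusted p of 0.916 (limma). Relative to Ccnb1, Ccnb2 was 5.36, 5.87, 3.05 and 4.00 times as high in the fl/fl libraries and 3.31, 2.84, 2.85 and 2.54 times in the cKO libraries. The ratio of these B-type cyclins thus overlapped between the groups only through fl/fl replicate 3, against cKO replicate 1.

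Wee1 encodes the kinase that phosphorylates and restrains Cdk1 (chr7:110122046-110143286, plus strand). Its fl/fl levels were 38.9, 22.4, 26.1 and 20.3 FPKM, with replicate 1 well above the rest, and its cKO levels were 29.6, 23.4, 25.3 and 28.7 FPKM. The means were 26.9 ± 8.36 and 26.7 ± 2.89 FPKM (SD, n = 4 each). Wee1 had a log2 fold change of 0.03 ± 0.19 (SE), with an interval from -0.39 to 0.45 and an adjusted p of 0.968 (limma).

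Cdc25c encodes a phosphatase that removes this inhibitory mark (chr18:34732997-34751533, minus strand). It varied least of the members in both groups, at 5.58, 6.19, 6.86 and 5.16 FPKM in the fl/fl libraries and at 6.86, 5.61, 6.42 and 6.64 FPKM in the cKO libraries. Its log2 fold change was 0.10 ± 0.12 (SE), with an interval from -0.16 to 0.37 and an adjusted p of 0.807 (limma). The Wee1 to Cdc25c ratio was 6.98, 3.61, 3.81 and 3.94 in the fl/fl libraries and 4.32, 4.17, 3.94 and 4.32 in the cKO libraries, so that 7 of the 8 libraries lay between 3.61 and 4.32 and fl/fl replicate 1 stood apart. That library was also the one with the low share of mitochondrial fragments, and the part of this in the ratio was not tested.

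**Figure D2:**
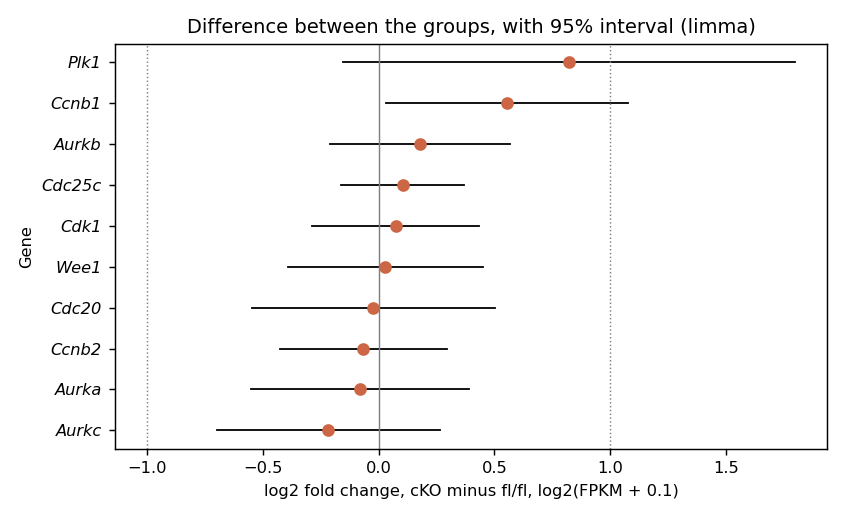
Log2 fold change (cKO minus fl/fl, on log2(FPKM + 0.1)) of each gene, where points are estimates and lines are 95% intervals from limma with 4 libraries in each group; dotted lines mark the fold change threshold of 1 in both directions. Only the interval of Ccnb1 lies wholly above 0, and only the intervals of Ccnb1 and Plk1 reach past 1.

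Plk1, which drives M-phase entry and the disassembly of the synaptonemal complex (chr7:122159439-122169873, plus strand), was the member with the widest spread in the fl/fl group. It was measured at 6.18, 13.1, 39.2 and 12.4 FPKM in fl/fl replicates 1 to 4. In the cKO libraries it was at 28.9, 21.4, 26.2 and 24.3 FPKM. The cKO values fell inside the gap between fl/fl replicate 3 and the other fl/fl libraries. The highest fl/fl value was 6.34 times the lowest, whereas in the cKO group this ratio was 1.35. The means were 17.7 ± 14.6 and 25.2 ± 3.19 FPKM (SD, n = 4 each). The log2 fold change of 0.82 ± 0.44 (SE) was the largest among the members and had a 95% interval from -0.15 to 1.80, with an unadjusted p of 0.0893 and an adjusted p of 0.550 (limma). Of all genes tested, 0.593% had a wider SD of log2(FPKM + 0.1) in the fl/fl group.

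Without fl/fl replicate 3, the groups no longer overlapped in Ccnb1 and Plk1 and still overlapped in the other 8 members. The cKO group was then higher without overlap in 4.79% of all genes tested. The log2 fold changes of Ccnb1 and Plk1 became 0.82 and 1.31, with an unadjusted p of 0.000176 and 0.000578 (limma, 3 against 4 libraries), but no member had an adjusted p below 0.05 (0.296 for Plk1). This library was left out after its values had been seen. Its 15856365 fragments and mitochondrial share of 2.97% lay within the range of the other libraries. In it Mki67 stood at 54.1 FPKM (15.9 to 28.4 in the others), Top2a at 82.8 (42.0 to 64.3) and Stra8 at 19.8 (2.03 to 12.9). Mcm2, Mcm5 and Mcm6 were at their lowest there, at 13.9, 28.8 and 22.2 FPKM. The part of this in the levels of Ccnb1 and Plk1 was not tested. Without fl/fl replicate 1, the library with the low mitochondrial share, the log2 fold changes were 0.39 for Ccnb1 and 0.43 for Plk1, with unadjusted p of 0.0955 and 0.235 (limma). Leaving out any single library other than fl/fl replicate 3 left 0 members at an unadjusted p below 0.05. Over the 8 fits with a library left out, 5.66% to 15.6% of all genes had such a p, and 7.17% without fl/fl replicate 3.

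Aurka encodes Aurora A, the kinase of the spindle poles, which activates Plk1 (chr2:172356190-172370535, minus strand). It was at 32.3, 25.1, 35.8 and 18.01 FPKM in the fl/fl libraries and at 31.9, 23.8, 26.1 and 21.2 FPKM in the cKO libraries. Replicate 4 was the lowest of both groups. The log2 fold change was -0.08 ± 0.21 (SE), with an interval from -0.55 to 0.39 and an adjusted p of 0.926 (limma).

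Aurkb encodes Aurora B, the kinase of the chromosomal passenger complex (chr11:69045647-69051664, plus strand). It was at 9.32, 7.17, 10.4 and 5.94 FPKM in the fl/fl libraries and at 9.77, 7.65, 9.98 and 9.08 FPKM in the cKO libraries. Aurkb had a log2 fold change of 0.18 ± 0.17 (SE), with an interval from -0.21 to 0.57 and an adjusted p of 0.772 (limma).

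Aurkc encodes Aurora C, the Aurora kinase used mainly in germ cells (chr7:6995300-7003091, plus strand), and was the lowest member in every library. It was at 2.40, 3.11, 3.57 and 2.60 FPKM in the fl/fl libraries and at 2.91, 3.37, 1.71 and 2.20 FPKM in the cKO libraries. The lowest value was in cKO replicate 3, and cKO replicate 2 stood second only to fl/fl replicate 3. These values rest on 44 to 86 fragments per library. Aurkc had a log2 fold change of -0.22 ± 0.22 (SE), with an interval from -0.70 to 0.26 and an adjusted p of 0.774 (limma). Aurkc was wider in the cKO group than in the fl/fl group, and 2.74% of all genes tested had a wider SD of log2(FPKM + 0.1) among the cKO libraries. The Aurkb to Aurkc ratio was 3.88, 2.30, 2.90 and 2.28 in the fl/fl libraries and 3.35, 2.27, 5.83 and 4.12 in the cKO libraries, overlapping between the groups.

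Cdc20, the activator of the anaphase-promoting complex (chr4:118432901-118437352, minus strand), was the most abundant member by FPKM. It was at 127.6, 91.3, 126.6 and 63.8 FPKM in the fl/fl libraries and at 130.3, 83.5, 93.1 and 87.2 FPKM in the cKO libraries. The means were 102.3 ± 30.7 and 98.5 ± 21.6 FPKM (SD, n = 4 each), and fl/fl replicate 4 was the lowest of all. The log2 fold change was -0.02 ± 0.23 (SE), with an interval from -0.55 to 0.50 and an adjusted p of 0.979 (limma). For every member except Ccnb1 and Plk1 the interval excluded a change of 2-fold in either direction.

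Other genes lie over some members, and whether counting used strand is not given in the sources used here. Wee1 is overlapped by the antisense gene 1600010M07Rik (mean of 0.0793 FPKM), Plk1 by Gm44985 (0.313 FPKM), Cdc25c by Gm3550 (0.404 FPKM) and the end of Cdc20 by Elovl1 over 53 bases (4.07 FPKM). Processed copies of the B-type cyclins, Ccnb1-ps (0.564 FPKM) and Ccnb2-ps (1.54 FPKM), could share reads with their parents.

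**Figure D3:**
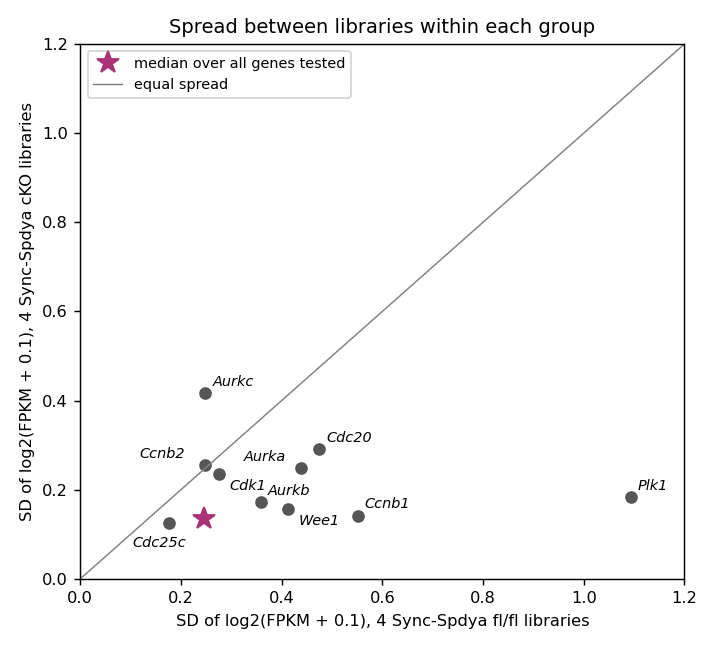
SD of log2(FPKM + 0.1) among the 4 cKO libraries against that among the 4 fl/fl libraries, for each gene and for the median of all 12141 genes (star); the line marks equal spread. Plk1 and Ccnb1 lie far to the right, and Aurkc is the member farthest above the line.

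The fl/fl libraries varied more than the cKO libraries. Each pair of libraries in a group was compared by its squared difference in fragments over that of sampling noise, averaged over genes. This was 82.8 to 109 in pairs with fl/fl replicate 1 and 16.4 to 27.0 in the other fl/fl pairs. In the cKO pairs it was 4.61 to 29.7. The SD of log2(FPKM + 0.1) was wider in the fl/fl group in 8 of the 10 members, beside 81.3% of all genes tested, a share close to that of the members. The median SD of the members was 0.386 in the fl/fl group and 0.210 in the cKO group, beside 0.246 and 0.134 over all genes. The members followed the libraries as a block in part. Among the fl/fl libraries, replicate 3 was the highest in 8 of the 10 members and replicate 4 the lowest in 7. Among the cKO libraries, replicate 1 was the highest in 8 members and replicate 2 the lowest in 8.

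The members covaried to different degrees over the 8 libraries. Pearson's r of log2(FPKM + 0.1) was computed for all 45 pairs, with exact two-sided permutation tests adjusted over the 45 pairs by the Benjamini-Hochberg method. The median r was 0.538, the range ran from -0.278 to 0.964, and 3 pairs had an adjusted p below 0.05. By Spearman's rho 7 pairs did, the same 3 and Cdc25c with Plk1, Ccnb1 and Ccnb2, and Cdk1 with Ccnb2. The points share their libraries and each library's scaling. The r over pairs of all genes tested was not computed, so these counts do not show closer covariation than among other genes.

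**Figure D4:**
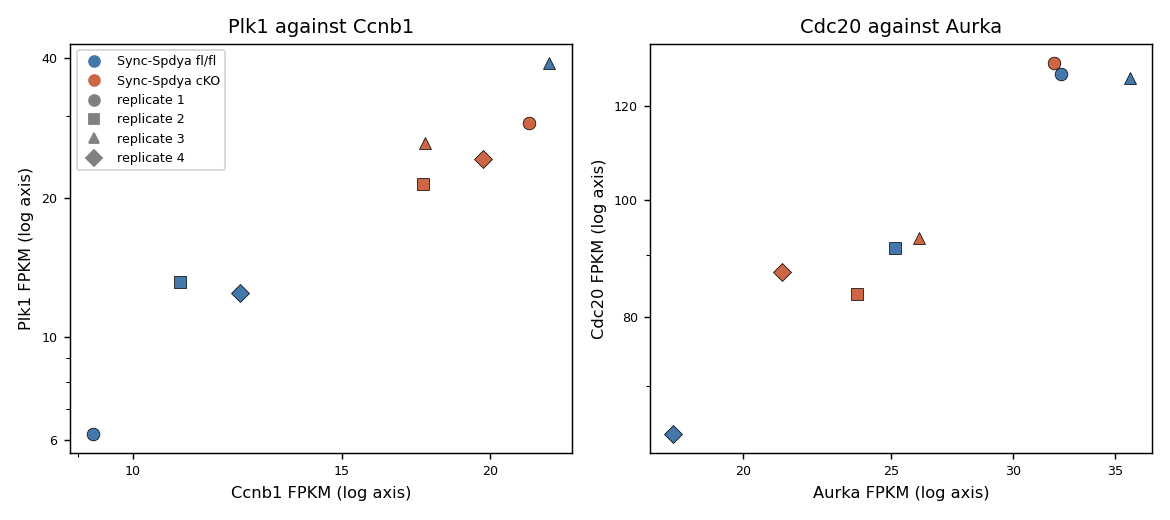
FPKM of Plk1 against Ccnb1 (left) and of Cdc20 against Aurka (right) on log axes, each point 1 library (colour for the group, shape for the replicate number). In the left plot fl/fl replicate 1 is lowest and fl/fl replicate 3 highest for both genes; in the right plot fl/fl replicate 4 is lowest for both.

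Ccnb1 and Plk1 moved together with a Pearson's r of 0.963 (exact permutation p = 0.000273, adjusted p = 0.0123) and a Spearman's rho of 0.952 (exact permutation p = 0.00114, adjusted p = 0.0335), n = 8. Without the pair of libraries farthest from the median of Ccnb1 (fl/fl replicates 1 and 2), r was 0.953, and as deviations from the group means it was 0.957. The covariation of the cyclin and the kinase was thus present over all libraries and in the deviations pooled over both groups. Those deviations rest mostly on the fl/fl libraries. There the SD of log2(FPKM + 0.1) was 1.09 for Plk1 and 0.551 for Ccnb1, beside 0.184 and 0.142 in the cKO group. The covariation in each group alone was not tested.

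Aurka and Cdc20 had an r of 0.964 (exact permutation p = 0.00102, adjusted p = 0.0229) and a rho of 0.881 (exact permutation p = 0.00724, adjusted p = 0.0466), n = 8. Without fl/fl replicates 3 and 4, the farthest from the median of Aurka, r was 0.939, and within groups it was 0.969. Between this pair and the other, r over all 8 libraries was 0.21 for Aurka with Ccnb1, 0.19 for Aurka with Plk1, 0.21 for Cdc20 with Ccnb1 and 0.15 for Cdc20 with Plk1. These low values rested on 2 libraries. Without the 2 farthest from the median of Ccnb1 (fl/fl replicates 1 and 2), r was 0.841 for Aurka and 0.916 for Cdc20 with Ccnb1. Without the 2 farthest from the median of Plk1 (fl/fl replicates 1 and 4), it was 0.629 for Aurka and 0.657 for Cdc20 with Plk1.

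Cdk1 and its activating phosphatase Cdc25c had an r of 0.887 (exact permutation p = 0.00198, adjusted p = 0.0298) and a rho of 0.929 (exact permutation p = 0.00223, adjusted p = 0.0335), n = 8. Without fl/fl replicate 3 and cKO replicate 1, r was 0.9501, and within groups it was 0.901. Cdk1 had the highest median r with the other members, 0.741, and Aurkc the lowest, 0.157. Wee1 had r below 0 with 4 of the other members, including -0.28 with Plk1 and -0.10 with Ccnb1. For both of these the sign turned: rho was 0.214 with Plk1 and 0.238 with Ccnb1, and r without the 2 farthest libraries was 0.644 and 0.883.

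**Figure D5:**
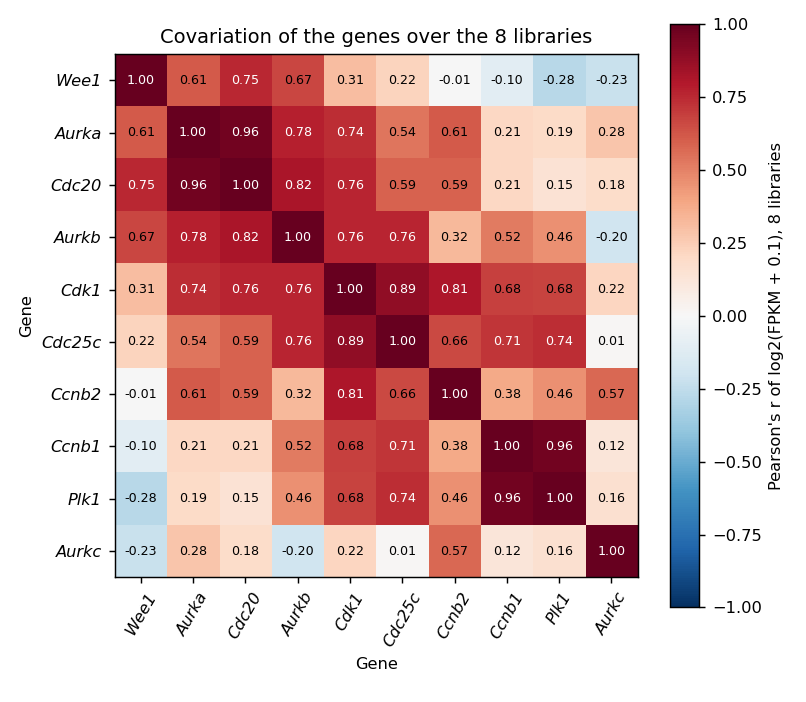
Pearson's r of log2(FPKM + 0.1) over the 8 libraries for each pair of genes, from -1 (blue) to 1 (red), with the value in each cell. Aurka with Cdc20 and Ccnb1 with Plk1 have the highest values (0.96 each), and Aurkc is pale against most of the other genes.

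The protein-coding genes whose profile over the 8 libraries was most like that of 3 members were sought among 12140 other genes, as a description. For Plk1 they were Bag2 (r of 0.986), a chaperone regulator, Cenpa (0.976), the centromeric histone H3 variant, and Ncoa3 (0.973), a nuclear receptor coactivator. Cenpa was at 5.52, 7.10, 15.2 and 8.11 FPKM in the fl/fl libraries and at 14.1, 9.70, 12.4 and 11.8 FPKM in the cKO libraries, with fl/fl replicate 1 lowest and fl/fl replicate 3 highest, as for Plk1. For Cdk1 they were Agk (0.980), Ndufa9 (0.964) and Tollip (0.962). For Aurkc they were Gm904 (0.912), Syce1l (0.887), a gene named for likeness to a synaptonemal complex protein, and Rexo2 (0.880).

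Of 49 further genes around these members, sorted by role, 47 were tested and 0 were called. Of these, 1 was higher and 1 lower in the cKO group at an unadjusted p below 0.05, beside 5.89% and 5% of all genes tested, and the log2 fold change was above 0 in 17 of the 47, with a median of -0.05. The count of 2 became 4 with a mean FPKM above 0.1 and 1 with one above 5, beside 11.1% and 8.93% of all genes. It was 7 with a replicate block and 9 with array weights, beside 14.6% and 20.9% of all genes. Over the left-out libraries it ran from 1 to 7, beside 5.66% to 15.6% of all genes. Among the partners and activators of CDKs, 7 of 8 were tested. The untested gene was Ccna1, the meiotic cyclin A1, which missed the filter only through its cKO mean of 0.964 FPKM. It was at 1.62, 1.71, 1.95 and 1.30 FPKM in the fl/fl libraries and at 1.26, 0.853, 0.905 and 0.834 FPKM in the cKO libraries, without overlap. Over all genes tested, 2.59% had the cKO group lower without overlap. Cks1b, a small subunit that binds CDKs, had a log2 fold change of 0.29 (unadjusted p of 0.0253, adjusted p of 0.396, limma). Ccna2, cyclin A2, stood at 0.26 (adjusted p of 0.635) and the X-linked Ccnb3, a B-type cyclin of meiosis, at -0.61 (adjusted p of 0.523). Ccnb3 was at 1.39, 1.58, 4.16 and 1.80 FPKM in the fl/fl libraries and at 1.29, 1.07, 1.34 and 1.51 FPKM in the cKO libraries, so that fl/fl replicate 3 was high for this cyclin too.

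Of the CDC25 phosphatases and inhibitory or checkpoint kinases, 5 of 5 were tested and 0 had an unadjusted p below 0.05. The checkpoint kinase gene Chek1 had a log2 fold change of -0.25, the phosphatase gene Cdc25a -0.23, and Pkmyt1, the membrane-bound relative of Wee1, -0.12. Of the cofactors and relatives of the Aurora and Polo kinases, 9 of 10 were tested (not Plk3) and 0 had an unadjusted p below 0.05. Haspin, whose kinase marks histone H3 to recruit Aurora B, stood at -0.45 (unadjusted p of 0.0507, adjusted p of 0.462, limma), Bora, a cofactor of Aurora A towards Plk1, at -0.26, and Nek2, a centrosomal kinase, at -0.39. In the Greatwall branch, which holds back the phosphatase that opposes Cdk1, the 3 genes were all tested, with log2 fold changes of -0.12 for Mastl, 0.11 for Arpp19 and -0.06 for Ensa.

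Of the 15 subunits and regulators of the anaphase-promoting complex, 1 had an unadjusted p below 0.05. This was Fbxo43 (Emi2), an inhibitor of the complex in meiosis. It was at 9.70, 6.89, 8.21 and 6.23 FPKM in the fl/fl libraries and at 6.05, 4.50, 4.48 and 4.39 FPKM in the cKO libraries, and the groups did not overlap, as was so for 2.59% of all genes with the cKO group lower. Its log2 fold change was -0.66 ± 0.16 (SE), with an unadjusted p of 0.00224 and an adjusted p of 0.178 (limma), so it did not pass the threshold. The related Fbxo5 (Emi1) stood at -0.27 (adjusted p of 0.532) and the subunit gene Anapc13 at 0.19 (adjusted p of 0.675). Of the 8 transcription regulators of G2 and M genes, 0 had an unadjusted p below 0.05. Mybl1, the A-MYB factor of pachytene cells, had a log2 fold change of -0.29 (adjusted p of 0.514), Lin54 of the DREAM complex -0.19, and E2f4 -0.12.

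Markers of the cell types of the testis were read beside these values, and none passed adjustment. The summed level of 8 pachytene markers was 1058 to 1613 FPKM in the fl/fl libraries and 836.2 to 1300 FPKM in the cKO libraries, with a log2 fold change below 0 in all 6 that were tested. Of the 2 left out by the filter, Ccna1 was lower in every cKO library than in any fl/fl library, as were 2.59% of all genes tested. Hist1h1t went the other way, with means of 0.279 FPKM in the fl/fl and 0.667 FPKM in the cKO group. Ldhc (-0.73) and Piwil1 (-0.40) were lower at an unadjusted p below 0.05, without passing adjustment. The 5 macrophage markers summed to 8.11 to 18.8 and 19.6 to 25.8 FPKM, and the 5 peritubular and endothelial markers to 51.0 to 83.0 and 81.1 to 112.8 FPKM. In each of those lists 5 of 5 genes were above 0 and 3 had an unadjusted p below 0.05. For these and the other marker lists, the shares over all genes tested were 52% above 0, and 5.89% higher and 5% lower at such a p (limma). The 8 Sertoli markers summed to 1185 to 1614 and 1550 to 1799 FPKM, with 8 of 8 above 0, and the 6 Leydig markers to 16.5 to 37.9 and 28.6 to 46.7 FPKM. The Leydig sums overlapped between the groups only through fl/fl replicate 4. Of the Leydig markers, 3 were tested, with 3 above 0 and 2 higher at an unadjusted p below 0.05 (limma). The 8 spermatogonial markers summed to 229.0 to 307.7 and 301.2 to 312.4 FPKM, but their members differed in direction, with Stra8 at a log2 fold change of -1.47 (unadjusted p of 0.00735, adjusted p of 0.280, limma) and Dmrtb1 at 0.51 (unadjusted p of 0.00797, adjusted p of 0.287, limma). The 6 markers of proliferating cells summed to 226.6 to 284.9 and 212.9 to 253.4 FPKM. Stra8, Mki67 and Top2a were highest in fl/fl replicate 3, and Mcm2, Mcm5 and Mcm6 were lowest there. The 8 round spermatid markers summed to 3.73 to 10.3 and 5.75 to 7.15 FPKM. The part of these values in the levels of the cell-cycle genes was not tested.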

How the data were processed

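Whole-testis RNA was sequenced from 8 mice. The authors deposited FPKM values for 54532 genes, already scaled per library, in a table and in 1 file per library with the same values. The submitters' processing notes name GRCm38 (mm10). The aligner, the counter and the use of strand are not given in the sources used here. FPKM times gene length gave whole fragments for 100% of values (tolerance 0.02). The labels and the study's methods differ in the RNA purification and in the times of tamoxifen.

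Groups were compared with limma 3.58.1 in R 4.3.3 (lmFit and trended eBayes) on log2(FPKM + 0.1), over the protein-coding genes whose mean passed 1 FPKM in each group. The test was checked on simulated fragments that varied alike in all libraries, so the unequal spread of these libraries was not part of that check. The 10 members were named whatever their values, with up to 3 genes of smallest p per pathway list and the 3 genes most like Cdk1, Plk1 and Aurkc. The members and lists were chosen with earlier results of these data known. No 2 libraries agreed within sampling noise. Pseudocounts, filters, biotypes, scaling, a replicate block, array weights, the trend, voom on recovered fragments and each left-out library were tried as alternatives. Gene coordinates are those of the table. Promoters are from RefSeq (GRCm38.p6). Figures were drawn with matplotlib 3.10.9.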

Additional observations from a re-analysis of the deposited data

Results flagged for a closer look

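In 48 groups of 4 libraries (the members, their ratios, marker sums and the mitochondrial share), 4 held a library far from the other 3 by Dixon's ratio, where chance flags about 5%. Ccnb2 was at 71.4 FPKM in cKO replicate 1 and at 49.9 to 50.2 FPKM in the other cKO libraries. The Wee1 to Cdc25c ratio was 6.98 in fl/fl replicate 1 and 3.61 to 3.94 in the other fl/fl libraries. In the same library the mitochondrial share was 0.464%, beside 2.97% to 3.39%. The summed Leydig markers were at 37.9 FPKM in fl/fl replicate 4 and at 16.5 to 17.2 FPKM in the other fl/fl libraries.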

How the results depend on the processing

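No member was called in any of the 20 alternatives, nor had an adjusted p below 0.05. Aurkc was not tested with a mean FPKM above 5. Ccnb1, Plk1, Aurkb, Cdc25c and Aurkc kept their direction in all alternatives that tested them. Over all genes, 2 calls became 0 with FPKM above 5, 0 with no filter on FPKM, 4 with all biotypes, 1 with median centring, 1 with rescaling to TPM and 57 with array weights; leaving out 1 library gave 0 to 3. With a replicate block, 0 genes in all and 0 members were called. Same-numbered libraries correlated at 0.0757 to 0.406 in their deviations, below 0.1 in 1 of 4, and 5 of 8 libraries correlated best with their own number. In replicates 1 and 4 both libraries did so, and in replicate 3 neither did. The study used littermates as controls, but the labels do not tie replicate numbers to litters. Pairs were therefore not assumed, and a pairing by number is not excluded.

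Members at an unadjusted p below 0.05 numbered 0 to 2 over the left-out libraries, the 2 being without fl/fl replicate 3, beside 5.66% to 15.6% of all genes. Plk1 ran from 0.43 without fl/fl replicate 1 to 1.31 without fl/fl replicate 3, and was 0.48 with array weights. Small log2 fold changes turned their sign: Ccnb2 was 0.0130 and Cdc20 0.0558 with TPM, where the median of all genes shifted from 0.01 to 0.09, and Cdk1 was -0.0521 with array weights, where Ccnb2 was -0.27. Over the left-out libraries, Aurka ran from -0.27 to 0.0575, Cdc20 from -0.23 to 0.10, Wee1 from -0.0898 to 0.22, Ccnb2 from -0.19 to 0.0195 and Cdk1 from -0.0328 to 0.20. The cause was not tested. Array weights ranged from 0.161 (fl/fl replicate 1) to 4.45 (cKO replicate 3). Depth limits Aurkc most.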
